A study of Mus musculus with 18 samples.

Results

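The regions described here are stretches of chromatin that were more open in mouse macrophages given CpG or LPS than in macrophages given medium alone, and that were not more open after polyI:C. They are 597 of the 53796 regions measured (1.11%). A region was taken when the mean log2 CPM of its libraries was at least 0.8 above medium after CpG and at least 0.8 above medium after LPS, and less than 0.4 above medium after polyI:C. Log2 CPM is the number of sequencing reads in a region scaled to the size of its library, on a log2 scale, so that a difference of 1 is a factor of 2. Openness was read by ATAC-seq, which counts the DNA ends that a transposase cuts where chromatin is accessible, in bone marrow-derived macrophages of wild-type C57BL/6 mice grown with M-CSF. Cells received a first treatment for 4 h, the medium was exchanged, and a second treatment followed for 4 h.

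Each of the 9 groups had 2 libraries and carries 2 letters, the first treatment and then the second, where C is CpG, L is LPS, P is polyI:C, T is TNF and M is medium. The groups with 2 stimuli were CpG then LPS (CL), CpG then TNF (CT), polyI:C then LPS (PL) and polyI:C then TNF (PT). The groups with medium first were CpG (MC), LPS (ML), polyI:C (MP) and TNF (MT), and MM had medium in both steps. Doses were 100 nM CpG, 1 ng/mL LPS, 1 µg/mL polyI:C and 10 ng/mL TNF. In CT cells CpG was thus present in the first 4 h and in MC cells in the last 4 h, and in both LPS groups with 2 stimuli LPS came last.

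CpG DNA is sensed by Toll-like receptor 9 in endosomes, which signals through the adaptor MyD88, and LPS by Toll-like receptor 4, which signals through MyD88 and through a second adaptor, TRIF. PolyI:C mimics viral double-stranded RNA, is sensed by Toll-like receptor 3 through TRIF and by RNA sensors in the cytosol, and is known as a strong inducer of type I interferon. TNF acts on its own receptors and, like the TLR ligands, activates NF-kB, a family of transcription factors that with AP-1 opens and binds many enhancers in stimulated macrophages.

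Membership rests on the MM, MC, ML and MP libraries, so values of these groups are given as a description with no test. Tests were run on the 10 libraries of CL, CT, PL, PT and MT, which the choice did not use. Differences are limma estimates ± SE in log2 CPM with n = 2 libraries in each group, and a region was called at an adjusted p under 0.05 over all 53796 regions. Whether replicates came from separate animals or cultures is not stated in the labels, so the p-values cover the spread from library to library, which may be technical.

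Libraries held 3141641 to 5986835 reads in regions, and the median member held 12 to 74 reads in a library, with the fewest in MM replicate 2 and the most in CL replicate 2. Between the 2 MP libraries the difference was within the noise of counting (chi-square of 1.004 per region, p = 0.2649 over 53796 regions). They may be 1 library deposited as 2, so the polyI:C mean may rest on 1 sample. Apart from descriptions and alternative fits, the MP libraries entered only the choice of regions. The PT libraries differed most (2.712 per region, against 1.069 to 1.598 in the other groups). Levels over all regions had SDs of 0.984 to 1.08 log2 CPM in the groups with 2 stimuli. SDs were 1.07 and 1.08 in MC, 1.12 to 1.13 in ML and MP, 1.14 to 1.18 in MT and 1.24 in MM. Of the 597 regions, 242 were also chosen after quantile normalization, which removes that difference in spread and chose 428 regions in all. All 9 macrophage genes looked at, among them Csf1r and Spi1, had an open region within 1 kb, and Cd3e, Elane, Mpo and Col1a1 had none. Some genes of other cell types also had one, among them Cd3d and Klrb1c of T and NK cells, Ms4a1 of B cells, S100a8 and Ly6g of neutrophils, Flt3 of dendritic cells and Cdh5 of endothelium.

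Few of the regions covered a gene start. Promoter windows of 250 bases before the start lay at least to a 125-base overlap in a member region for 15 promoters, of which 7 belong to named genes. Of these, 4 are printed from RefSeq (GRCm38.p6), because these windows are the only stretches of the regions whose sequence was at hand, and because they include the 3 such windows with the largest smaller rise after CpG and LPS and the start of Irak3, an inhibitor of the MyD88 pathway. Sucnr1 encodes the succinate receptor (window chr3:60081619-60081868, plus strand), Cd302 a C-type lectin receptor (chr2:60284485-60284734, minus strand), and F10 coagulation factor X (chr8:13037058-13037307, plus strand). Irak3 (chr10:120201598-120201847, minus strand) encodes a kinase-like protein that restrains IRAK signalling. Capitals mark a match to a searched word, TGANTCA of AP-1 in Sucnr1 and TTGCNNNAA of C/EBP in Cd302, on either strand.
Sucnr1: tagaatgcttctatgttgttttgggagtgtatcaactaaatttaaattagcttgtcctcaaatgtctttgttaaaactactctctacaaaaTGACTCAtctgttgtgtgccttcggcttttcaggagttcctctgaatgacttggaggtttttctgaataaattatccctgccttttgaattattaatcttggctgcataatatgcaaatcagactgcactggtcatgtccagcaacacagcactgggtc
Cd302: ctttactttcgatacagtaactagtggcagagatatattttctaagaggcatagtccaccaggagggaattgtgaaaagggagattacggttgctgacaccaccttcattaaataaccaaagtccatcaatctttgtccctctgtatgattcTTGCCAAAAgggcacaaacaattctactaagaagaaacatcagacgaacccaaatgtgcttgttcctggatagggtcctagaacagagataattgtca
F10: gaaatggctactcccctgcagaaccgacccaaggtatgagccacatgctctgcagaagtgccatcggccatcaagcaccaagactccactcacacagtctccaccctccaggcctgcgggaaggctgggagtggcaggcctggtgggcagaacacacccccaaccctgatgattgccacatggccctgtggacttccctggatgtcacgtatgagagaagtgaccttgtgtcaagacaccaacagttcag
Irak3: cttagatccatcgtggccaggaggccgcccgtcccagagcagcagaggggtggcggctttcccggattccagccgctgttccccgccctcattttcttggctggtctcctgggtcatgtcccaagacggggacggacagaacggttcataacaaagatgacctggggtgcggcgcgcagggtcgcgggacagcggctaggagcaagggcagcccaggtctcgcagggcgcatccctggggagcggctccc

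The words searched on both strands were GGAANNTCC (kB), TGANTCA (AP-1), GAAANNGAA (interferon response), GAGGAAGT (PU.1) and TTGCNNNAA (C/EBP), and matches of different words could overlap. Of the 15 promoters in member regions, 2 held the AP-1 word and 2 the C/EBP word (13.33% each), against 6.75% and 8.29% of 32851 promoters of that length. The interferon response word was in 1 (6.67%, against 7.13%), and the kB and PU.1 words were in none, against 3.59% and 2.44%. Among the 10070 promoters lying in any measured region, 4.53% held the AP-1 word and 6.32% the C/EBP word. The shares there were 6.04% for the interferon response word, 4.21% for kB and 3.1% for PU.1. With 15 windows these shares are a description, and a match is not a bound site.

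At the choice itself, the 597 regions had median levels of 3.58 log2 CPM in MC, 3.22 in ML and 2.06 in MP, against 2.06 in MM. The median difference to MM was 1.39 after CpG, 1.06 after LPS and 0.09 after polyI:C. CpG exceeded LPS in 468 of the regions. The largest smaller-of-2 rise lay inside Pdss1, a gene for the enzyme that makes the tail of coenzyme Q, at 3.28 after CpG and 2.42 after LPS. It was followed by Best1, which encodes a chloride channel, at 2.14 and 2.61, and by Cinp, whose product binds a cell cycle kinase, at 2.86 and 2.09. Just inside the thresholds were regions at Mettl3 with a CpG difference of 0.80, at Lyn with an LPS difference of 0.80, and at Rfx7 and Slc1a2 with a polyI:C difference of 0.40 each. Just outside were Oplah with an LPS difference of 0.80, and Ptpre, Dennd2a and Samd12 with polyI:C differences of 0.40 each, all to the digits shown.

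TNF alone had a smaller median difference than CpG or LPS, which follows largely from the rule. It required differences of at least 0.8 after CpG and LPS and set no level for TNF. The median level was 2.49 log2 CPM in MT, against 2.06 in MM, and the median difference was 0.41. TNF reached a difference of 0.8 in 75 of the 597 regions (12.6%), against 4.36% of all regions, and stayed under 0.4 in 292 of them. These MT differences share the MM libraries with the choice and were not tested.

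**Figure D1:**
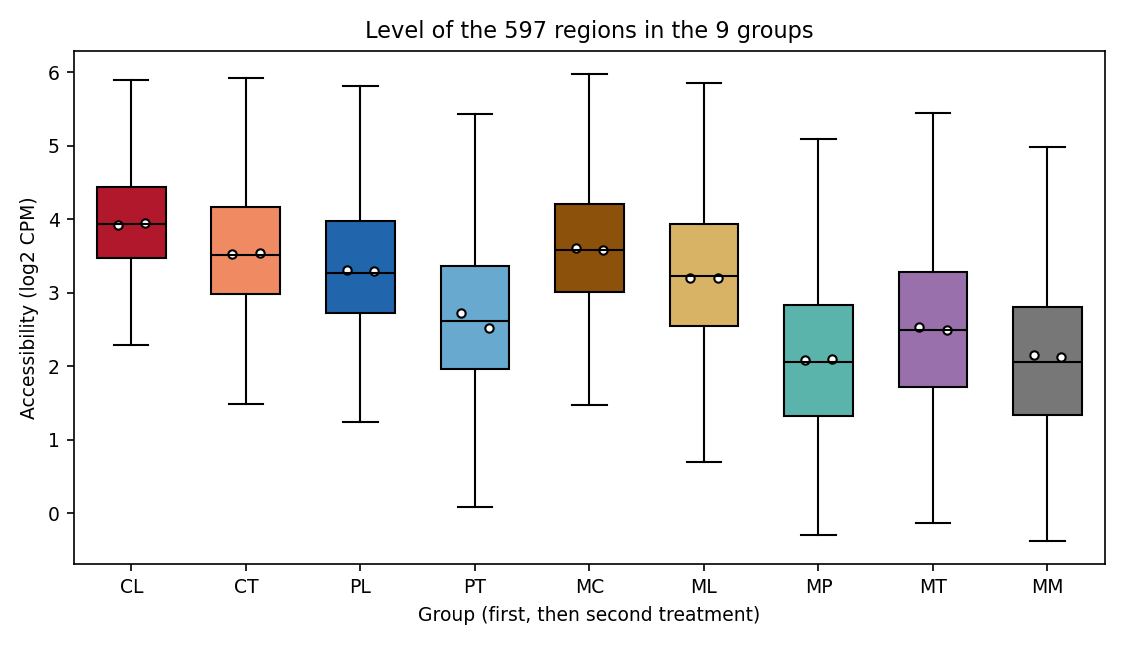
Levels (log2 CPM, y axis) of the 597 regions in the 9 groups (x axis, first then second treatment). Boxes span the quartiles of the group means with the median as a line, whiskers reach to 1.5 times the box height with points beyond them left out, and the 2 open circles are the medians of the 2 libraries. The CL median is highest at 3.93, and MP and MM are lowest at 2.06 each.

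Among the groups with 2 stimuli, the regions stood highest when CpG came first. The median level was 3.93 log2 CPM in CL, 3.51 in CT, 3.27 in PL and 2.62 in PT, against 2.49 in MT. Of the 9 groups, CL was the highest in 388 regions and MC in 104, while CT was highest in 45, PL in 32, ML in 27 and PT in 1. The CL level exceeded the ML level by a median of 0.64 and in 538 of 597 regions, whereas PL exceeded ML by a median of 0.10 and in 353. CT stood close to MC, with a median difference of -0.06. These comparisons with MC and ML are descriptions, since the rule selected high values there.

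**Figure D2:**
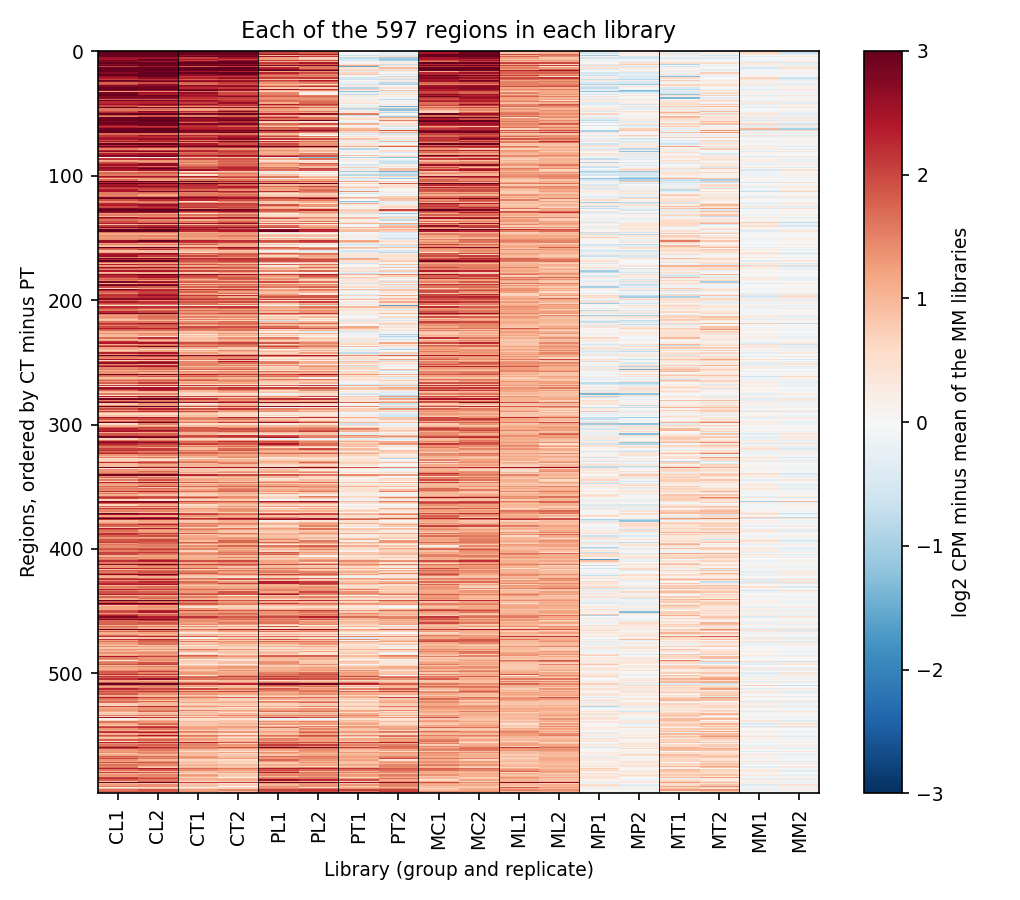
Level of each of the 597 regions (rows, ordered by CT minus PT) in each library (columns) as log2 CPM minus the mean of the MM libraries, with red above MM and blue below. The CL, CT, MC and ML columns are mostly red down the whole plot, and PT shades from blue or white at the top to red at the bottom.

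CpG before TNF was compared with medium before TNF. There was no group with CpG and then medium, so openness left from CpG and openness gained under TNF after CpG cannot be told apart. Of the 597 regions, 376 rose in CT and 0 fell, with a median of 0.93 (limma, adjusted p under 0.05). 3 were lower at an unadjusted p under 0.05, and voom on the recovered reads called 389 higher and 1 lower. After quantile normalization 296 were higher and 2 lower, with a median of 0.80. Over all regions 9.54% were higher and 3.89% lower, with a median of 0.02. Here and below, all regions are not matched to the 597 in level. Their median in MM was 3.68 log2 CPM, against 2.06 in the 597. In 282 of the 597 regions the difference was at least 1. Genes at the largest rises included a glutamate transporter, a regulator of endosomes and mitophagy, and the coenzyme Q enzyme Pdss1.

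Inside Slc1a2, the glutamate transporter gene (chr2:102757064-102757565), the CT libraries stood at 4.50 and 4.48 log2 CPM, against 0.70 and 0.45 in MT. PL had 3.57 and 3.54 and PT had 1.93 and 1.28. CL had 4.54 and 4.72. The CT libraries lay near CL and above all libraries of PL, PT and MT, and the CT difference to MT was 3.92 ± 0.25 (limma adjusted p = 2.97e-11). The region inside Pdss1 (chr2:22933555-22934056) had 6.31 and 6.28 in CT, against 2.69 and 2.61 in MT. Its CL values were 6.26 and 6.14 and its PL values 5.99 and 6.03, while PT had 3.56 and 3.59. CL, CT and PL did not overlap with PT or MT, and the CT difference to MT was 3.64 ± 0.15 (limma adjusted p = 6.25e-15). The region inside Clec16a, an endosomal and mitophagy regulator (chr16:10584806-10585307), had 3.87 and 3.94 in CT, against 0.16 and 0.45 in MT, a rise of 3.60 ± 0.28 (limma adjusted p = 6.92e-10). Both CL libraries of this region, at 4.77 and 4.65, exceeded both PL libraries, at 2.83 and 2.45.

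PolyI:C before TNF was compared with medium before TNF in the same way, using the same MT libraries. The regions were split here, with 95 (15.9%) higher and 50 (8.38%) lower in PT, and a median of 0.14 (limma). Over all regions 13.5% were higher and 9.85% lower, so both shares lay near those of all regions. After quantile normalization the split turned to 41 higher and 63 lower, and without MT replicate 1 the counts were 45 and 28. Regions higher in PT included Marchf7, a ubiquitin ligase gene, Tnfrsf8, which encodes the receptor CD30, and Clec4e, a receptor for mycobacterial lipid.

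The region inside Marchf7 (chr2:60232813-60233314) had 2.68 and 2.18 log2 CPM in PT, against -0.07 and -0.20 in MT, and rose by 2.57 ± 0.29 (limma adjusted p = 5.55e-07). CT was at the same height there, at 2.50 and 2.64. At Tnfrsf8 (chr4:145259997-145260498, between genes) PT had 4.63 and 4.34, against 2.58 and 2.49 in MT, a rise of 1.95 ± 0.18 (limma adjusted p = 3.56e-08). The Clec4e region (chr6:123281060-123281561, within 1 kb of a gene end) had 3.17 and 3.23 in PT, against 1.79 and 1.39 in MT, and rose by 1.61 ± 0.24 (limma adjusted p = 2.54e-05). At these 3 regions both PT libraries lay above both MT libraries.

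The named regions lower in PT included those at Sla, Litaf and Cux1. Inside Sla, which encodes the Src-like adaptor (chr15:66813353-66813854), PT had 2.81 and 2.08 log2 CPM, against 4.18 and 4.03 in MT (-1.66 ± 0.25, limma adjusted p = 2.29e-05). CT, at 4.04 and 4.33, overlapped MT at this region. Near Litaf, a gene for an LPS-induced endosomal protein (chr16:11008205-11008706), PT had 3.61 and 3.31, against 4.94 and 4.72 in MT (-1.37 ± 0.21, limma adjusted p = 4.01e-05). Inside Cux1, a homeodomain factor gene (chr5:136392653-136393154), PT had 1.15 and -0.12, against 2.04 and 2.28 in MT (-1.65 ± 0.35, limma adjusted p = 0.00127), with the 2 PT libraries far apart.

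CpG and polyI:C as first stimulus were then compared directly under the same second stimulus. Before TNF, 392 of the 597 regions were higher in CT and 4 in PT, with a median CT minus PT of 0.93 (limma). Over all regions 14.7% were higher in CT and 12.8% lower, with a median of 0.02. Before LPS, 178 regions were higher in CL and 0 in PL, with a median CL minus PL of 0.59, against 2.97% of all regions higher and 3.28% lower. 4 were lower in CL at an unadjusted p under 0.05, and voom called 247 higher and 1 lower. The 2 comparisons share no library. Of the regions called higher in them, 160 were the same, which is 40.8% of those before TNF, against 29.8% of all 597 called before LPS, and 89.9% of those before LPS, against 65.7% of all 597 called before TNF. Across the 597 regions the differences correlated at r = 0.658, given as a description since the regions share libraries and low or high read depth.

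The count before LPS rested on each library of the 2 groups, falling to 36 without CL replicate 1, 48 without CL replicate 2, 58 without PL replicate 1 and 51 without PL replicate 2. With 1 library left in a group, that library is assumed to vary like the others. No region fell in any of these 4 fits, and over all regions 190 to 378 were then higher.

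**Figure D3:**
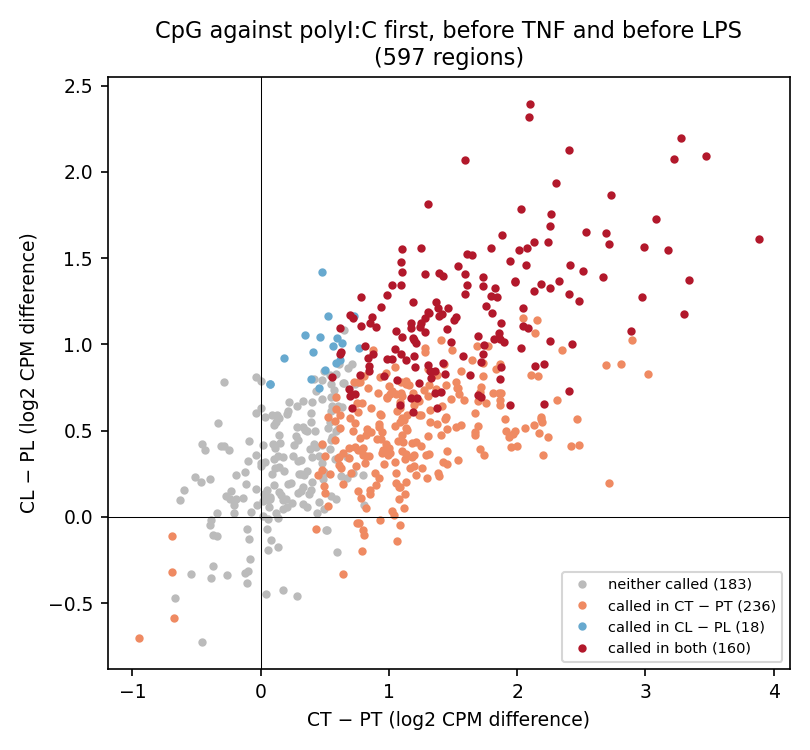
Each point is 1 of the 597 regions, with CT minus PT (log2 CPM) on the x axis and CL minus PL (log2 CPM) on the y axis, coloured by whether limma called it in neither, 1 or both comparisons. Most points lie right of and above 0, and the 160 regions higher in both lie in the upper right.

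The region inside Fpr1, a receptor for bacterial formyl peptides (chr17:17878339-17878840), showed both differences. It had 5.05 and 5.25 log2 CPM in CL, against 3.46 and 3.54 in PL (1.65 ± 0.21, limma adjusted p = 6.7e-05). It had 4.58 and 4.51 in CT, against 1.93 and 2.08 in PT (2.54 ± 0.21, limma adjusted p = 8.37e-09). No library with CpG first overlapped one with polyI:C first under the same second stimulus. Inside Gramd1b, a gene of cholesterol transfer (chr9:40428985-40429486), CL had 4.28 and 4.02, against 1.78 and 1.89 in PL, the largest called difference before LPS among named genes at 2.32 ± 0.31 (limma adjusted p = 9.16e-05). Inside Gsr, the glutathione reductase gene (chr8:33655196-33655697), CL had 4.12 and 4.05, against 2.03 and 1.89 in PL (2.13 ± 0.34, limma adjusted p = 0.000566). At the scavenger receptor gene Marco (chr1:120473643-120474144, within 1 kb of a gene end) CL had 4.17 and 3.83, against 2.74 and 1.38 in PL (1.94 ± 0.38, limma adjusted p = 0.00282). The 2 PL libraries lay far apart there. The other Marco region (chr1:120524111-120524612) had 4.662 and 4.785 in CL, against 4.545 and 4.543 in PL (0.18 ± 0.17, limma adjusted p = 0.614).

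The 4 regions lower in CT than in PT lay at Washc2, Sucnr1, Adgre4 and Naa50, which encode a subunit of an endosomal sorting complex, the succinate receptor, an adhesion receptor of myeloid cells and an acetyltransferase. At the Sucnr1 start, whose sequence is printed above, CT had 2.74 and 2.47 log2 CPM, against 3.07 and 3.52 in PT (-0.69 ± 0.26, limma adjusted p = 0.0462). PL, at 3.31 and 3.43, was as high as CL, at 3.25 and 3.26, and MT had 1.79 and 2.28. At Washc2 (chr6:116222856-116223357) CT had 1.70 and 2.71, against 3.59 and 2.73 in PT (-0.95 ± 0.32, limma adjusted p = 0.03). Adgre4 and Naa50 differed by -0.69 ± 0.24 and -0.68 ± 0.25 (limma adjusted p = 0.0329 and 0.0464). These 4 calls depended on the fit. Fitting CT and PT alone called 0 of the 597 regions lower in CT, and the replicate block called 2. With the filter on level, which kept 273 of the 597, 0 were lower. Quantile normalization, log2(CPM + 1), voom and the fit of all 18 libraries called 5 each. Each of the 4 was higher in PT than in MT, by 0.77 to 1.40. A low MP level was required by the rule, with MP values of 1.57 and 1.23 at Sucnr1, against 1.53 and 1.32 in MM. In MP cells polyI:C was present in the last 4 h, and in PT cells in the first 4 h.

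LPS and TNF as second stimulus were compared after each first stimulus. After CpG, 3 of the 597 regions were higher in CL than in CT and 0 were lower, with a median of 0.35 (limma). Over all regions 0.128% were higher and 0.0186% lower, and at an unadjusted p under 0.05 186 of the 597 were higher and 2 lower. Voom called 56 higher and 0 lower. The 3 were a region near Med21, a Mediator subunit gene (chr6:146685377-146685878), a region near the chemokine gene Cxcl15 (chr5:90819713-90820214) and a region over 50 kb from any protein-coding gene (chr2:19146140-19146641). At Med21 CL had 3.59 and 3.77 log2 CPM, against 2.02 and 2.18 in CT (1.58 ± 0.27, limma adjusted p = 0.0151). At Cxcl15 CL had 3.13 and 3.46, against 1.40 and 1.58 in CT (1.80 ± 0.38, limma adjusted p = 0.0475). This count was 0 without either library of CL, CT or PL, and 57 or 56 without PT replicate 1 or 2.

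After polyI:C, 226 of the 597 regions were higher in PL than in PT and 0 were lower, with a median of 0.66 (limma). At an unadjusted p under 0.05 2 were lower, and voom called 187 higher and 0 lower. Over all regions 3.48% were higher and 1.22% lower, with a median of 0.03. The count was 75 without PL replicate 1 and 94 without PL replicate 2. The largest rise with a named gene lay near Ntng2, a netrin-family gene (chr2:29247042-29247543), where PL had 2.96 and 2.81 log2 CPM, against 0.28 and -0.12 in PT (2.80 ± 0.31, limma adjusted p = 3.76e-06). The comparison of CT with MT shares no library with this one, and 186 regions were called higher in both. That is 49.5% of those called in CT, against 37.9% of all 597 called in PL, and 82.3% of those called in PL, against 63% of all 597 called in CT.

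The difference between LPS and TNF was tested for depending on the first stimulus, as CL minus CT less PL minus PT. It was negative in 27 of the 597 regions and positive in 0, with a median of -0.30 (limma). At an unadjusted p under 0.05 9 were positive, and voom called 32 negative and 0 positive. Over all regions 0.203% were negative and 0.00186% positive, or 109 and 1 regions. In the 27 regions the median level was 4.66 log2 CPM in CL and 4.61 in CT, and 4.11 in PL and 2.50 in PT, against 2.60 in MT. The regions were chosen by this contrast, so these levels describe the choice. The count was 2 without any 1 library of CL or PL, 3 without CT replicate 2, 10 without CT replicate 1, and 138 without PT replicate 1, of which 7 were positive.

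The strongest of these was the Pdss1 region, with a difference of differences of -2.52 ± 0.21 (limma adjusted p = 2.08e-07). Cinp (chr12:110878950-110879451) had 4.63 and 4.56 log2 CPM in CL and 4.74 and 4.59 in CT, against 2.87 and 3.10 in PL and 1.27 and 0.29 in PT (-2.27 ± 0.40, limma adjusted p = 0.00765). Its MT libraries, at 0.97 and 1.08, lay within the range of PT. Near Klf6, a zinc finger factor gene induced early after stimulation (chr13:5828588-5829089), CL had 5.79 and 5.93 and CT had 5.76 and 5.66, against 4.72 and 4.99 in PL and 3.20 and 3.36 in PT (-1.42 ± 0.25, limma adjusted p = 0.00911). Other genes among the 27 were Sh3bp5, Pag1, Tnip1, Il6ra, Csf2, Bcl2l1, Slc1a2 and Svil, named here after their values were seen.

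**Figure D4:**
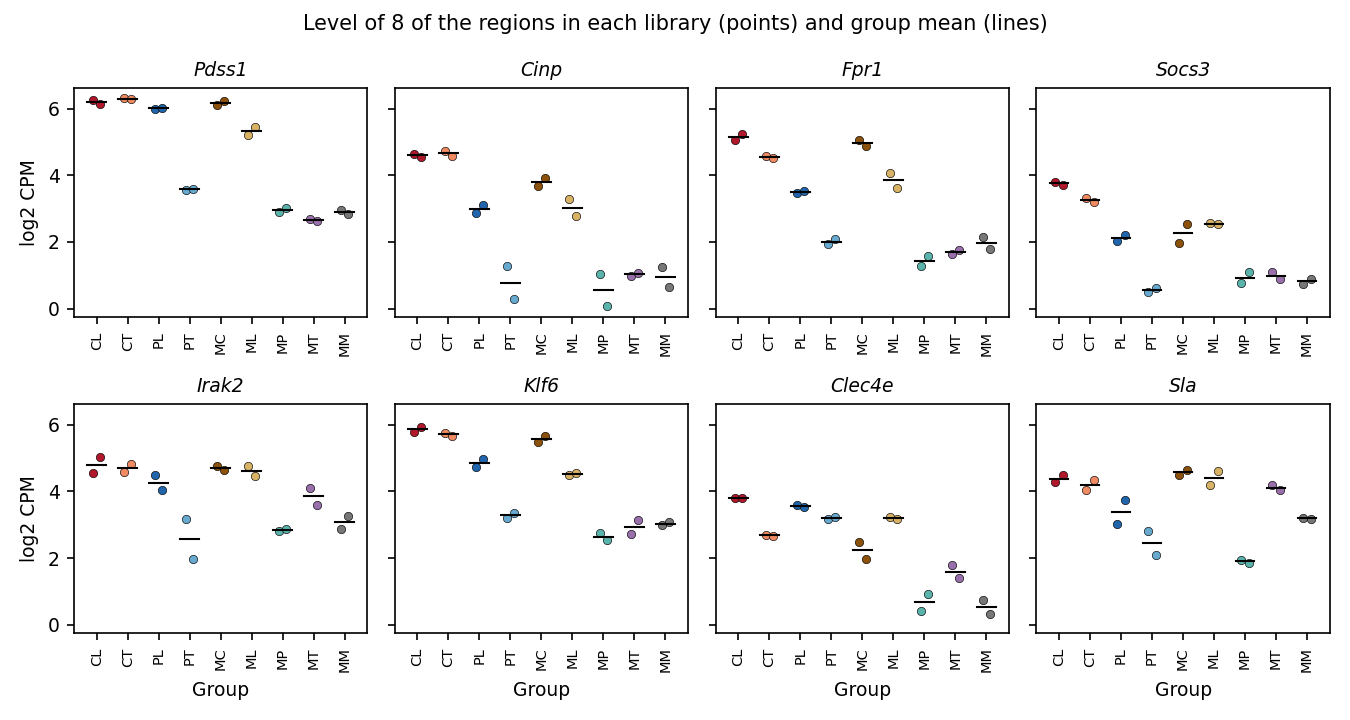
Level (log2 CPM, y axis) of 8 of the regions in each library (points) and the mean of each group (lines), with groups on the x axis. Pdss1, Cinp, Fpr1, Socs3, Irak2, Klf6 and Sla are high in CL and CT and low in PT, whereas Clec4e is high in PT. At Sla the MT mean lies near the CT mean.

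Genes of the pathways that sense the stimuli are described first. Each region was given to the closest protein-coding gene body up to 50 kb away, a rule of distance that says nothing of regulation. Calls by list stand beside those of all 597 regions, of which 65.7% were higher in CT than in PT. Against MT, 63% of the 597 were higher in CT and 15.9% in PT. The few regions of each list were not tested against these shares. Regions opened by CpG, LPS and polyI:C, 4.91% of all regions, outnumbered the members in every list. They were 11 of 127 at TLR4, TLR9 and MyD88 genes, 33 of 161 at NF-kB genes and 7 of 162 at AP-1 genes. Cytokine genes held 35 of them among 151, receptor genes 15 among 181 and enzyme and effector genes 33 among 150. For lineage factors they were 20 of 259, and for adhesion genes 36 of 329. Of 127 regions at genes of the TLR4, TLR9 and MyD88 pathway, 4 were members (3.15%, against 1.11% of all regions), at Irak2, Irak3, Tab2 and Cd14. All 4 were higher in CT than in PT, with a median of 0.84, and 22 of the 127 regions of the list were higher and 16 lower. Of 48 regions at genes of the TRIF, RIG-I-like and MDA5 pathway 0 were members, a number of regions too small to set against 1.11%. Inside Irak2, a kinase gene of the MyD88 complex (chr6:113659575-113660076), CT had 4.58 and 4.83 log2 CPM and PT had 3.17 and 1.97, against 4.10 and 3.60 in MT. CT was higher than MT by 0.85 ± 0.27 and PT lower, at -1.28 ± 0.27 (limma adjusted p = 0.0354 and 0.00126). The region at the Irak3 start had 5.01 and 4.74 in CT, against 4.11 and 4.59 in PT (0.53 ± 0.18, limma adjusted p = 0.0321), and 4.38 and 4.45 in MT.

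Interferon-stimulated genes held 0 of the regions among 136 at 40 genes, which at a share of 1.11% over all regions is too few regions to read as a difference. In that list 54 regions were higher and 2 lower in CT than in MT, and 4 were higher and 42 lower in CT than in PT (limma), with a median CT minus PT of -0.32. Of its 136 regions 29 belonged to those opened by all 3 TLR ligands and 5 to those opened by polyI:C only.

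NF-kB genes held 5 of the regions among 161 (3.11%, against 1.11% of all regions), at Tnip1, Chuk, Otulin and Nfkbiz, the last with 2. Of the 5, 4 were higher in CT than in PT, with a median of 0.93, and 45 of the 161 were higher and 7 lower. Inside Tnip1, whose product restrains NF-kB together with A20 (chr11:54936013-54936514), CL had 6.18 and 6.06 log2 CPM, CT 5.89 and 6.02 and PL 5.89 and 5.83, against 4.31 and 4.50 in MT. PT, at 4.95 and 4.20, was the only group with 2 stimuli that overlapped MT. The rise in CT over MT was 1.55 ± 0.17 (limma adjusted p = 3.36e-07). The region inside Otulin, a linear-ubiquitin protease gene (chr15:27625296-27625797), was the most open of these, at 6.60 and 6.49 in CT, against 5.77 and 5.69 in MT (0.82 ± 0.12, limma adjusted p = 2.79e-05). At the 2 Nfkbiz regions the CT difference to MT was 1.46 ± 0.28 (limma adjusted p = 0.000589) and -0.15 ± 0.32 (limma adjusted p = 0.82).

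AP-1 and immediate early genes held 4 of the regions among 162 (2.47%, against 1.11% of all regions). They lay near Klf6, Batf and Fos and inside Fosl2, and all 4 were higher in CT than in PT, with a median of 1.51. Over the list of 162 regions, 43 were higher and 4 lower. Near Batf, an AP-1 family gene (chr12:85666583-85667084), CL had 3.85 and 3.85 log2 CPM, CT 2.50 and 2.68 and PL 3.21 and 3.10, against 0.84 and 1.08 in MT. PT had 1.93 and 1.28, and the rise in PL over PT was 1.55 ± 0.29 (limma adjusted p = 0.00193). Near Fos (chr12:85490267-85490768) CT had 3.85 and 4.04, against 1.92 and 2.49 in MT (1.73 ± 0.27, limma adjusted p = 3.71e-05).

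Cytokine and chemokine genes held 4 of the regions among 151 (2.65%, against 1.11% of all regions), near Csf2, Il10 and Il1b, the last with 2. All 4 were higher in CT than in PT, with a median of 1.40, and 42 of the 151 were higher and 15 lower. Near Csf2, the gene for GM-CSF (chr11:54201207-54201708), PT had 1.59 and 1.28 log2 CPM, against 2.73 and 2.67 in MT (-1.27 ± 0.24, limma adjusted p = 0.0004), while CT had 3.55 and 3.68. PL, at 3.62 and 3.24, lay above MT again. At the Il1b region farther from the gene (chr2:129401328-129401829) PT had 0.69 and 0.60, against 1.72 and 1.64 in MT (-1.03 ± 0.33, limma adjusted p = 0.0255). CT had 2.02 and 2.82 there, and CT minus PT was 1.77 ± 0.33 (limma adjusted p = 0.000401). Near Il10 (chr1:131029629-131030130) CT had 2.98 and 3.21, against 2.33 and 2.18 in PT (0.84 ± 0.26, limma adjusted p = 0.0178).

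Receptor genes held 5 of the regions among 181 (2.76%, against 1.11% of all regions), inside Fpr1, Fpr2, Il6ra and Cx3cr1 and near Csf3r. CT was higher than PT at 3 of the 5, with a median of 0.55, and at 48 of the 181 regions of the list, with 17 lower. The 2 formyl peptide receptor genes, which neighbour each other, gave different calls. Inside Fpr2 (chr17:17889691-17890192) CT had 5.30 and 4.87 log2 CPM and PT 5.15 and 5.49, against 4.68 and 4.71 in MT. There PT was higher than MT by 0.62 ± 0.16 (limma adjusted p = 0.00657), whereas at Fpr1 the PT difference was 0.31 ± 0.21 (limma adjusted p = 0.308). The difference between the 2 regions was not tested. Inside Il6ra, a subunit of the interleukin 6 receptor (chr3:89904975-89905476), CT had 3.85 and 4.46, against 1.99 and 2.13 in MT (2.10 ± 0.24, limma adjusted p = 3.82e-07), and PL with 3.72 and 3.72 stood far above PT with 2.33 and 2.08.

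Enzyme and effector genes held 6 of the regions among 150 (4.0%, against 1.11% of all regions), at Cd38, Cybb, Cd274, Slpi and Marco, the last with 2. Of the 6, 5 were higher in CT than in PT, with a median of 1.12. Over the list 31 of the 150 were higher and 21 lower, with a median of 0.13. Inside Cd38, an NAD-consuming enzyme gene (chr5:43882082-43882583), CL had 6.02 and 5.76 log2 CPM, against 4.70 and 5.07 in PL (1.01 ± 0.17, limma adjusted p = 0.000725). Inside Cybb, a subunit of the phagocyte NADPH oxidase (chrX:9449826-9450327), CT had 3.19 and 2.98, against 1.30 and 1.24 in MT (1.82 ± 0.27, limma adjusted p = 1.98e-05). The Cd274 region passed the test in none of these comparisons, with 3.72 and 3.66 in CT and 3.61 and 3.56 in PT, against 3.39 and 3.79 in MT.

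Feedback and metabolic genes held single regions, near the share of 1.11% over all regions. These were 1 of 72 at SOCS and cytokine feedback genes (1.39%) and 1 of 112 at glycolysis and hypoxia genes (0.89%). Near Socs3, a brake on cytokine receptors (chr11:117962149-117962650), CT had 3.31 and 3.19 log2 CPM and PT 0.50 and 0.60, against 1.08 and 0.90 in MT. The rise in CT over MT was 2.25 ± 0.29 (limma adjusted p = 3.89e-06), and CL, at 3.79 and 3.72, exceeded PL, at 2.029 and 2.196, by 1.65 ± 0.29 (limma adjusted p = 0.00148). Inside Pfkfb3, an activator of glycolysis (chr2:11524667-11525168), CT had 3.48 and 3.88, against 1.20 and 1.08 in MT (2.54 ± 0.32, limma adjusted p = 2.19e-06). PT was spread from 0.86 to 2.27 at this region.

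Genes of macrophage lineage factors held 7 of the regions among 259 (2.7%, against 1.11% of all regions), at Cebpa, Ikzf1, Maf, Mitf, Runx1, Rxra and Zeb2. All 7 were higher in CT than in MT, with a median of 1.28, and higher in CT than in PT, with a median of 1.00 (limma). Over the list 43 regions were higher and 6 lower in CT than in MT. At Mitf, a basic helix-loop-helix factor gene (chr6:98019934-98020435), CT had 2.74 and 2.64 log2 CPM, against 0.36 and 0.69 in MT (2.16 ± 0.30, limma adjusted p = 1.2e-05). Near Ikzf1, the Ikaros gene (chr11:11785538-11786039), CL had 5.49 and 5.49, against 4.25 and 4.63 in PL (1.05 ± 0.20, limma adjusted p = 0.00209). CT, at 5.44 and 5.33, stood at the CL height. Inside Rxra, a nuclear receptor gene (chr2:27727898-27728399), CL had 3.56 and 3.35, against 2.03 and 1.97 in PL (1.46 ± 0.28, limma adjusted p = 0.00286).

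Adhesion and actin genes held 9 of the regions among 329 (2.74%, against 1.11% of all regions). They lay at Lpp with 3 and at Cd44, Dock4, Dock10, Itgb2, Itgb8 and Svil. Of the 9, 7 were higher in CT and 4 in PT, each compared with MT. Over the 329 regions of the list, 61 were higher and 12 lower in CT, and 46 were higher and 47 lower in PT. Inside Dock10, a guanine exchange factor gene (chr1:80667996-80668497), CL had 3.00 and 2.77 log2 CPM, against 1.48 and 1.25 in PL (1.52 ± 0.36, limma adjusted p = 0.0104). Inside Dock4 (chr12:40805141-40805642) PT had 2.33 and 2.52, and CT 2.40 and 2.38, against 0.84 and 1.39 in MT. The PT rise there was 1.31 ± 0.30 (limma adjusted p = 0.0028). The remaining lists held 3 regions at Slc7a11 among 105 of oxidative stress genes (2.86%), and Dusp6 and Mapkapk2 among 186 of MAP kinases and phosphatases (1.08%). Clec4e was the only one among 157 of lipid uptake and phagocytosis (0.64%).

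By place, 315 of the 597 regions (52.76%) lay inside a gene, 153 (25.63%) between genes, 95 (15.91%) over 50 kb from a gene and 34 (5.7%) within 1 kb of a gene end. Over all regions the shares were 43.25%, 22.91%, 9.21% and 24.62%. The 34 regions near a gene end were higher in CT than in MT in 16 cases, with a median of 0.69, and the 315 inside genes in 198 cases, with a median of 0.97. They lay on all 20 chromosomes. The 502 regions with a gene belonged to 455 genes, of which 416 held 1 region, and 32 of the 597 had another within 10 kb. Assigning by the nearest gene end gave another gene to 98 regions.

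Best1 held 4 of the regions among 5 assigned to it, all on chromosome 19. The 4 lie side by side from 9985076 to 9987592 and may be parts of a single open stretch rather than separate sites. At the first of them along the chromosome (chr19:9985076-9985577) CL had 4.59 and 4.48 log2 CPM and CT 3.50 and 4.38, against 2.40 and 2.36 in MT, with CT higher by 1.56 ± 0.24 (limma adjusted p = 3.59e-05). PL had 4.04 and 4.29 and PT 3.14 and 2.86. The other 3 were also higher in CT than in MT, by 1.01 to 1.30, and all 4 were higher in PL than in PT, by 0.92 to 1.20. PT was also higher than MT at 2 of the 4, by 0.65 ± 0.20 (limma adjusted p = 0.0212) at chr19:9986206-9986707. At the other (chr19:9987091-9987592) the libraries stood at 3.63 and 3.18 in PT and 3.09 and 3.48 in CT, against 2.49 and 2.04 in MT (1.14 ± 0.24 for PT, limma adjusted p = 0.00109). CL and PL differed by less than 0.4 at all 4, and none of the 4 was called there.

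The 597 regions were set beside 2644 regions opened by all 3 TLR ligands and 952 opened by polyI:C only, chosen with the same thresholds. CT was called higher than PT in 65.7% of the 597, 20.1% of the 2644 and 0.525% of the 952, and lower in 0.67%, 19.6% and 47.5%. CL was called higher than PL in 29.8%, 4.58% and 0%, and lower in 0%, 7.6% and 22.9%. The median CT minus PT was 0.93, -0.001 and -0.63, and PT was called higher than MT in 15.9%, 51.3% and 54.5%. PL was called higher than PT in 37.9%, 18.2% and 0.21%. These are shares of lists chosen on the same 4 groups, without a test between the lists.

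**Figure D5:**
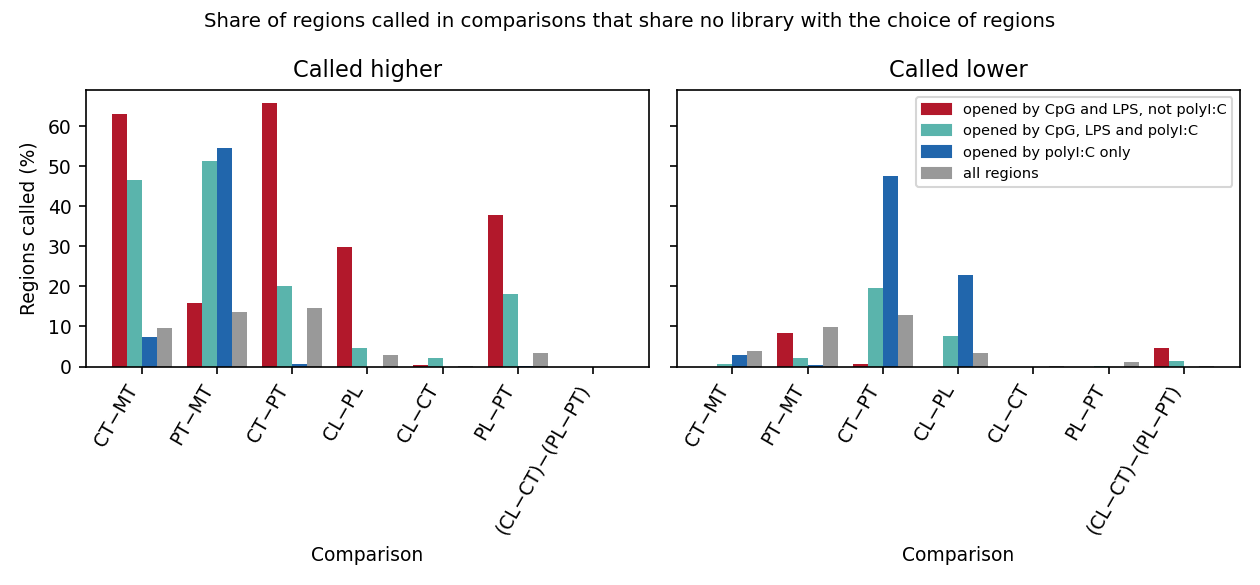
Share of regions (percent, y axis) that limma called higher (left) or lower (right) in the 7 tested comparisons (x axis), for the 597 regions, the 2644 opened by CpG, LPS and polyI:C, the 952 opened by polyI:C only, and all regions. The 597 regions have the tallest bars for CT minus PT and CL minus PL among the higher calls, at 65.7% and 29.8%.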

How the data were processed

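The authors deposited log2 CPM values for 53796 regions in 18 libraries. Reads had been processed on mm10 (GRCm38) with MACS3 3.0.0b1, featureCounts, Picard, SAMtools 1.9 and Bowtie2 2.2.5, per the submitters' processing notes, and their settings are not given in the sources used here. All deposited log2 values return whole reads within 0.01 when a prior of 3 reads is assumed, with 0 reads at -0.695, which understates differences where reads are few. Regions span 501 bases from start to end, with coordinates as deposited, and were used without a filter. Gene positions (21896 protein-coding genes without strand) and promoter windows came from RefSeq. The planned sequences of the leading regions could not be read without a genome, so promoter windows are shown instead.

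Limma 3.58.1 in R 4.3.3 fitted group means to the deposited log2 values of the 10 MT, CL, CT, PL and PT libraries, with a variance trend (5 residual and 21.57 prior degrees of freedom) and Benjamini-Hochberg adjustment. The fit was tested on simulated reads. The regions, lists and tests were chosen with earlier results of these data known. Regions were named by rule: the 10 largest smaller rises, the 5 largest called rises and falls per comparison with non-overlapping groups and a higher mean of at least 1, up to 3 per list, the 6 genes with most regions, and those nearest the thresholds. Predicted genes were skipped, and further list members and promoters were named after their values were seen. Alternatives were other normalizations, filters, variance models, libraries in the fit, rules and each library left out. Limma-voom was run on the recovered reads.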

Additional observations from a re-analysis of the deposited data

Results flagged for a closer look

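The difference between LPS and TNF as second stimulus depended on the first stimulus, by an interaction term in limma with n = 2 libraries in each group, in 27 of the 597 regions, all with a negative sign. In these 27 regions, which the same libraries chose, PL exceeded PT by a median of 1.61 and CL exceeded CT by a median of 0.05. The largest were at Pdss1 (-2.52), Cinp (-2.27), Ntng2 (-2.19), Pag1 (-2.07) and Sh3bp5 (-2.01), in log2 CPM.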

How the results depend on the processing

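Counts of the 597 regions called, in either direction, were compared with 376 for CT against MT, 145 for PT against MT, 396 for CT against PT, 178 for CL against PL, 3 for CL against CT, 226 for PL against PT and 27 for the interaction. A filter at the 25th percentile of level, which left 273 of them, gave 151, 76, 180, 58, 0, 111 and 14, in the same order. The stricter rule (198 regions) gave 146, 44, 155, 82, 1, 99 and 16. The looser rule (1141 regions) gave 592, 264, 657 and 269 for the first 4. Fitting each pair of groups alone gave 63 for PT against MT, 341 for CL against PL, 105 for CL against CT and 112 for PL against PT. CL against CT had 6 after quantile normalization, with or without the regions chosen again, 14 with log2(CPM + 1), 5 without a variance trend, 12 with all 18 libraries, 8 with the MP libraries averaged and 56 with voom on recovered reads. PT against MT had 89 when the regions were chosen again after quantile normalization, an alternative chosen after seeing the data. The interaction had 7 without a trend and 52 with 18 libraries. The cause of these changes was not tested, apart from the fewer regions tested. Leaving out each library gave 276 to 426, 73 to 200, 271 to 393, 36 to 279, 0 to 57, 75 to 290 and 2 to 138, and gave 549 to 631 regions by the rule. The regions chosen changed more than their number. Of the 597 regions, 391 were chosen again without MM replicate 1 and 376 without MM replicate 2. Without 1 library of MC, ML or MP, 503 to 571 were chosen again. The replicate numbers share no stated origin, with correlations of -0.358 to 0.242 between same-numbered libraries. The replicate block gave 374, 136, 392, 169, 2, 213 and 20. Of 247 called results at named regions, no alternative reversed any, and 133 stayed called in every alternative run. Depth limits the regions under about 20 reads, where the prior shrinks differences.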
